A study of Mus musculus with 22 samples.

Results

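The genes described here are 34 mouse genes of cholesterol and fatty acid synthesis. They were chosen by name, as the genes of these pathways that the RefSeq accessions of the array's probes identify, and each is represented by its brightest probe. They were 34 of the 20018 genes named on the array, and all 34 gave signal above the negative controls in the lung, as did 16425 of the 20018. The members fall into 20 enzymes of sterol synthesis (9 of the mevalonate pathway and 11 from squalene to cholesterol), 6 regulators and 8 enzymes of fatty acid synthesis. Expression was measured in the right lung of female C57BL/6 mice, 8 weeks old at the start, 24 h after a single intratracheal instillation of Mitsui7, a multiwalled carbon nanotube. There were 6 mice at 18 µg, 5 at 54 µg and 6 at 162 µg, and 5 control mice received the vehicle alone, 0.9% NaCl with 10% bronchoalveolar lavage fluid, under the same anaesthesia. The material was whole lung, so fewer cells of a type and less RNA per cell cannot be told apart. On each array lung RNA labelled with Cy5 was read against a Universal Mouse Reference RNA from 11 cell lines labelled with Cy3, without dye swap. Values for single mice are loess-normalized log2 ratios of lung to reference, and changes are differences of these in a limma model with dose and slide, given with their standard error (SE) and a Benjamini-Hochberg adjusted p over all 55681 probes. A gene was called where it was expressed, the adjusted p was at most 0.05 and the change at least 1.5-fold.

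Cells make cholesterol from acetyl-CoA through mevalonate, farnesyl diphosphate and squalene, and the same early steps feed the isoprenoids that anchor proteins to membranes. Fatty acid synthesis also begins with acetyl-CoA, which Acly makes from citrate and Acss2 from acetate. Both branches are known targets of the sterol regulatory element-binding proteins, SREBPs, which are held in the endoplasmic reticulum by Scap and the Insig proteins while sterols are plentiful and released to the nucleus when they fall. Srebf2 is known mainly for the sterol branch and Srebf1 for the fatty acid branch. In the lung, alveolar type II cells use both lipids for surfactant and macrophages take up and handle much of what is cleared.

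Promoters are shown for the 4 called members that have an entry in RefSeq's promoter table (build GRCm38.p6) and for Hmgcs1, because both branches are known to be read through short elements in this region. Of the 34 members, 26 had an entry. The 250 bases before the transcription start were searched on both strands for TCACNCCAC, a form of the sterol regulatory element, for CCAAT, the element of the factor NF-Y, and for CACGTG, an E-box, none of which overlapped another in the sequences printed. Capitals mark every match, so that ATTGG is CCAAT read on the other strand. The start of Pmvk shown is the first of 2 in the table, and the second held none of the motifs.

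Hmgcs1, chr13:119690101-119690350, plus strand: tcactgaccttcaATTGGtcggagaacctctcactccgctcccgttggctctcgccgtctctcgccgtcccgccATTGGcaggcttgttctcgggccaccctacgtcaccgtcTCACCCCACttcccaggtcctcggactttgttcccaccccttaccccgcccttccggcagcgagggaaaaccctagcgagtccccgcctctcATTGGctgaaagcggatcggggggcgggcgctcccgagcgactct
Pmvk, chr3:89454291-89454540, plus strand: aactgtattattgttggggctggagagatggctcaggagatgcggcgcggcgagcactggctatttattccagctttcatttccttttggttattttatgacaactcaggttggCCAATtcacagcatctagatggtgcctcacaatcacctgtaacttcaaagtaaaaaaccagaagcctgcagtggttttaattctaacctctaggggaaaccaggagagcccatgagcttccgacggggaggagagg
Lss, chr10:76531355-76531604, plus strand: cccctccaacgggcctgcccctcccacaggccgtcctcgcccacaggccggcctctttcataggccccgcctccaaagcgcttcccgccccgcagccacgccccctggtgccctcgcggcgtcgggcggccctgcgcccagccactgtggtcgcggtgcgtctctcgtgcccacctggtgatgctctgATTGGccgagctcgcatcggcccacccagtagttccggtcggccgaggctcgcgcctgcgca
Hsd17b7, chr1:169969206-169969455, minus strand: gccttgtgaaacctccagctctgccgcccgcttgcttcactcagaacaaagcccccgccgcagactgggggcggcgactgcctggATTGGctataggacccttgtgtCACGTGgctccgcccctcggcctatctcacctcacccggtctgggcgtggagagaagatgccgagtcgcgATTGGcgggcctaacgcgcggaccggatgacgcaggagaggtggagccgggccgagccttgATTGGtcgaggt
Acss2, chr2:155517793-155518042, plus strand: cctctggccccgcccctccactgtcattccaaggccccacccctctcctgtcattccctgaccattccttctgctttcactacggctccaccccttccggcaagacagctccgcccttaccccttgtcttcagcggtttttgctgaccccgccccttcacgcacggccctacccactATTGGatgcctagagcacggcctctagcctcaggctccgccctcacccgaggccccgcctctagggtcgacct

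Of the 3 motifs CCAAT was the commonest. It was found before a start of 21 of the 26 members, against 37.5% of the 27025 genes in the table. Among the 16 sterol enzymes with an entry 15 held it, Acat2 being the exception, while 2 of the 5 fatty acid enzymes did (Acss2 and Fasn). The sterol element as spelled occurred in 1.22% of genes and in 1 member, Hmgcs1, and the E-box in 6.86% of genes and in 5 members (Dhcr7, Hsd17b7, Insig1, Sc5d and Scap). These are matches of letters in a window, and no binding was measured.

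Among the 34 members, 4 rose and 1 fell past both thresholds, all at 162 µg. The 4 that rose were sterol enzymes, Pmvk and Acat3 of the mevalonate pathway and Lss and Hsd17b7 beyond squalene, at 2.67-fold, 1.73-fold, 1.58-fold and 1.75-fold of control. The 1 that fell was Acss2, a fatty acid branch enzyme, at 0.599 of control. Over all expressed genes 3.34% were called higher and 3.53% lower at this dose, so 4 of 34 higher and 1 of 34 lower are to be read against about that share. By adjusted p alone 7 of 34 passed, the further 2 being Fdft1 and Acat2, against 10.8% of all genes. No member was called at 18 or 54 µg by limma, where the shares called over all genes were also smaller. At 18 µg they were 0.633% for higher and 1.44% for lower genes, and at 54 µg 0.25% and 0.14% in the same order. At an unadjusted p under 0.05 there were 9 members (26.5%) at 18 µg, against 22.3% of all genes. There were 8 (23.5%) at 54 µg, against 13.9%, and 14 (41.2%) at 162 µg, against 28.9%.

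**Figure D1:**
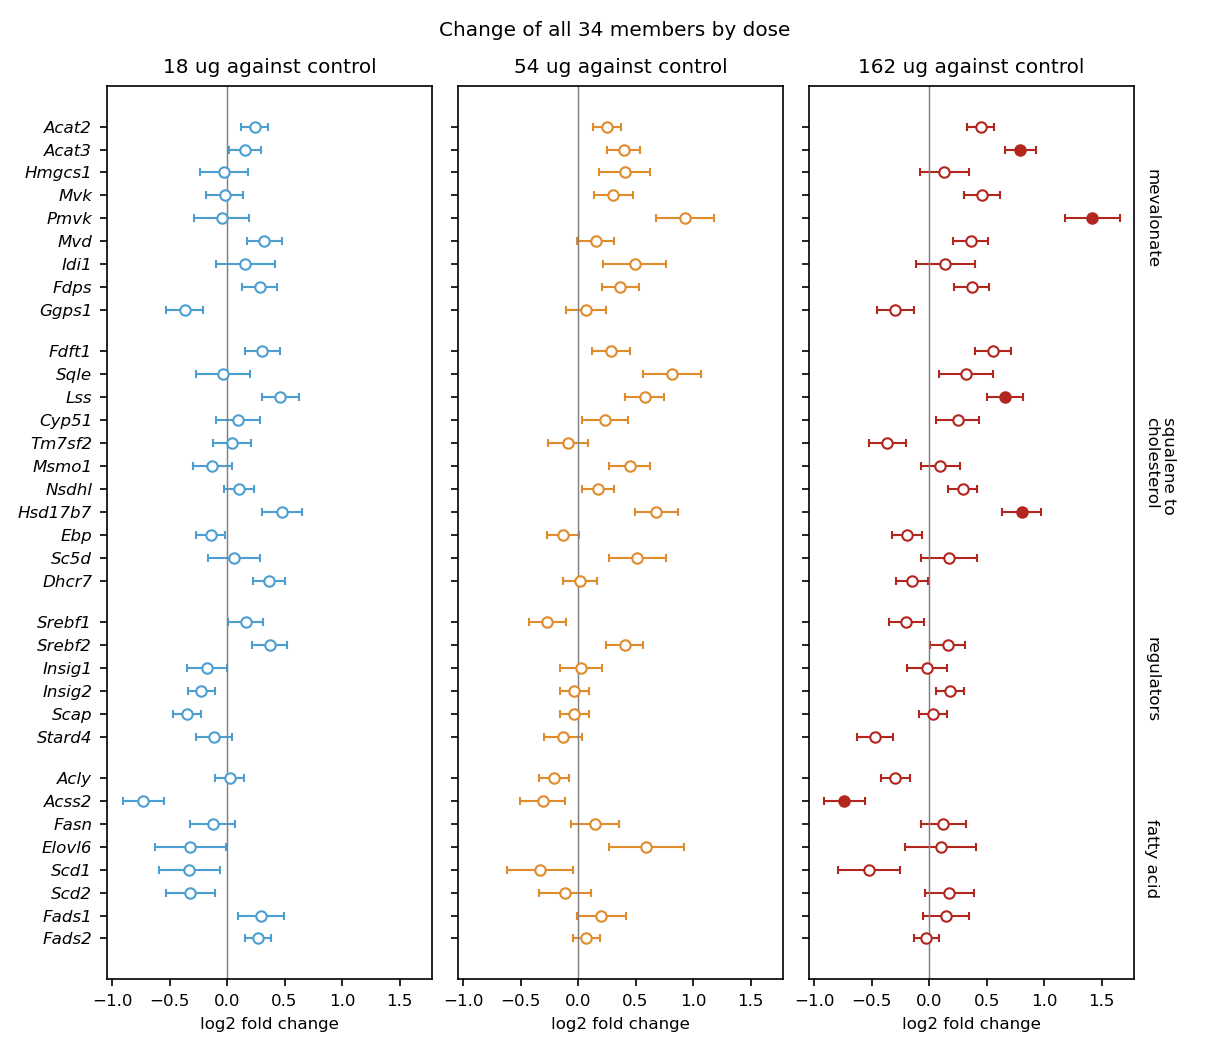
Change of each of the 34 members against control at 18, 54 and 162 µg, as log2 fold change on the horizontal axis with bars of 1 SE, grouped by branch. Filled points are the 5 called members, all at 162 µg. At 54 µg all 9 mevalonate genes lie to the right of 0.

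Pmvk, phosphomevalonate kinase, had the largest change of any member. Its log2 ratios were 0.49, 0.62, 0.089, 0.16 and 0.53 in the 5 control mice. At 18 µg they ran from -0.29 to 0.62 with a median of 0.30, with 1 mouse below every control and the highest level with the highest control. At 54 µg they were 0.49, 1.22, 1.53, 1.25 and 1.46, of which 4 of 5 lay above every control. At 162 µg they ran from 1.10 to 2.53 with a median of 1.71, and all 6 lay above every control. The change was -0.047 (SE 0.24, adjusted p = 0.959) at 18 µg, 0.93 (SE 0.25, adjusted p = 0.18) at 54 µg and 1.42 (SE 0.24, adjusted p = 0.002) at 162 µg, so the 54 µg value missed the threshold on adjusted p. Within the 4 slides that hold both a control and a 162 µg mouse the difference was positive in 4, from 0.95 to 2.36. A second Pmvk probe gave -0.48, 0.88 and 1.23 at the 3 doses, with adjusted p = 0.00789 at 162 µg in the same limma fit.

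Acat2 and Acat3 are near-identical mouse paralogues of the cytosolic thiolase that joins acetyl-CoA units at the head of the pathway, and a probe for one may read the other. Acat3 was -1.37, -1.20, -1.32, -0.99 and -0.73 in the controls. It was -0.69, -0.84, -1.06, -0.68 and -0.53 at 54 µg and -0.99 to -0.014 with a median of -0.22 at 162 µg, where 5 of 6 mice lay above every control and replicate 2 lay among them. The change was 0.15 (SE 0.14, adjusted p = 0.663), 0.39 (SE 0.15, adjusted p = 0.405) and 0.79 (SE 0.14, adjusted p = 0.0026) at 18, 54 and 162 µg. The gene body of Acat3 overlaps that of Tcp1 in RefSeq, whose own probe gave 0.14 at 162 µg (adjusted p = 0.631). For Acat2 the controls were -1.13, -1.06, -1.05, -0.92 and -0.84, and at 162 µg the mice ran from -0.76 to -0.039 with a median of -0.46. All 6 lay above every control, as did all 5 at 54 µg and 5 of 6 at 18 µg, yet the change of 0.45 (SE 0.12, adjusted p = 0.0275) at 162 µg stayed under 1.5-fold, after 0.24 at 18 µg and 0.25 at 54 µg.

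The other 6 mevalonate genes were not called at any dose. Hmgcs1, which makes HMG-CoA, was at -0.026, 0.40 and 0.13 at 18, 54 and 162 µg, with 1 mouse left out at 162 µg. The kinase Mvk gave -0.020, 0.31 and 0.46, with adjusted p = 0.11 at the top dose, and its second probe gave 0.55 there with adjusted p = 0.0254. Mvd, the decarboxylase after Pmvk, was at 0.32, 0.15 and 0.36. Idi1, the isopentenyl diphosphate isomerase, was at 0.16, 0.49 and 0.14, and Fdps, which makes farnesyl diphosphate, at 0.28, 0.36 and 0.37. Ggps1, which leads away from sterols to geranylgeranyl diphosphate, was at -0.37, 0.070 and -0.30, the lowest of the 9 at 162 µg.

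Hsd17b7, a ketosteroid reductase that acts after lanosterol, separated from the controls at every dose. Its log2 ratios were -0.97, -1.58, -0.83, -1.13 and -1.05 in the controls. They were -0.80 to -0.21 with a median of -0.71 at 18 µg, -0.060, -0.34, -0.57, -0.64 and -0.39 at 54 µg and -0.81 to 0.21 with a median of -0.34 at 162 µg. Every treated mouse lay above every control, although control replicate 3, at -0.83, came close to the lowest 162 µg mouse. The change was 0.47 (SE 0.17, adjusted p = 0.18), 0.68 (SE 0.18, adjusted p = 0.182) and 0.80 (SE 0.17, adjusted p = 0.0103) at the 3 doses, and its second probe gave 0.74 at 162 µg (adjusted p = 0.0118).

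Lss, lanosterol synthase, closes squalene epoxide into the first sterol. The controls lay close together at -1.12, -0.90, -0.92, -0.80 and -0.89. The treated groups were wider, from -0.98 to 0.21 with a median of -0.64 at 18 µg, at -0.46, -0.061, -0.99, -0.76 and -0.66 at 54 µg, and from -0.87 to 0.23 with a median of -0.38 at 162 µg. At 162 µg 5 of 6 mice lay above every control. The change was 0.46 (SE 0.16, adjusted p = 0.149), 0.58 (SE 0.17, adjusted p = 0.225) and 0.66 (SE 0.16, adjusted p = 0.0187).

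Sqle, squalene epoxidase, feeds Lss and had the second largest change at 54 µg. It was -0.85, -1.48, -1.31, -1.07 and -1.47 in the controls and -0.85, -0.76, 0.40, -0.90 and -0.32 at 54 µg, with replicate 3 far above the rest. At 18 µg it ran from -2.34 to -0.53 with a median of -1.19 and at 162 µg from -1.46 to -0.54 with a median of -0.84. The change was -0.034 at 18 µg, 0.82 (SE 0.25, adjusted p = 0.267) at 54 µg and 0.32 (SE 0.24, adjusted p = 0.554) at 162 µg, none past the test. Fdft1, squalene synthase, was -0.091, -0.58, -0.47, 0.16 and -0.56 in the controls and -0.13 to 0.74 with a median of 0.18 at 162 µg, where 3 of 6 mice lay above every control. Its change was 0.31 at 18 µg, 0.29 at 54 µg and 0.55 (SE 0.16, adjusted p = 0.0441) at 162 µg, while a second, dimmer probe gave 0.16 (adjusted p = 0.467). Fdft1 overlaps Ctsb in RefSeq, whose probe gave 0.25 (adjusted p = 0.388).

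**Figure D2:**
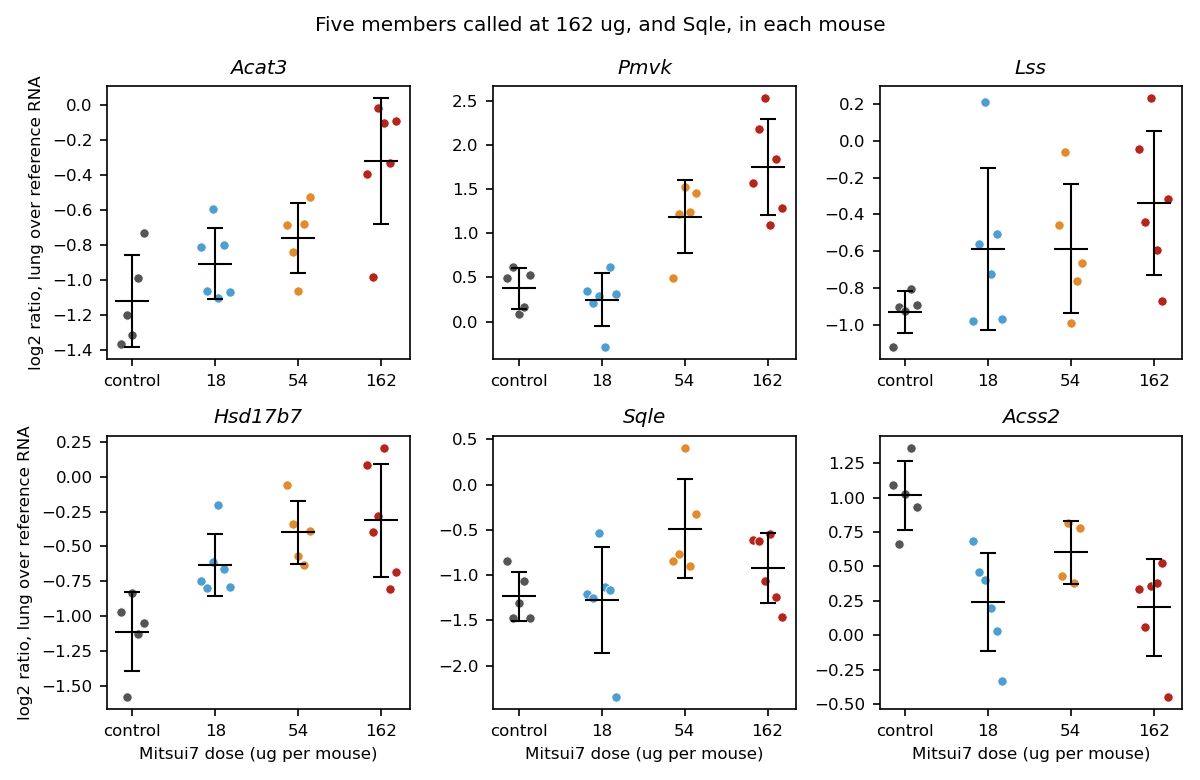
Log2 ratio of lung to reference RNA in each mouse (points) by dose of Mitsui7 in µg for the 5 called members and Sqle, with the group mean (bar) and 1 SD. All 6 mice at 162 µg lie above every control for Pmvk and Hsd17b7 and below every control for Acss2.

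The other members of the branch follow Lss in the order of the pathway, with changes at 18, 54 and 162 µg, and none was called against control. Cyp51, lanosterol demethylase, was at 0.094, 0.23 and 0.25. Tm7sf2, a sterol reductase, was at 0.045, -0.089 and -0.36. It overlaps Vps51 in RefSeq, whose probe was called lower at 18 µg at -1.34 (adjusted p = 0.0224) and at 162 µg at -1.37 (adjusted p = 0.00486). The methylsterol oxidase Msmo1 was at -0.13, 0.45 and 0.097, with 1 mouse of each treated group left out of its fit as an outlier spot. The decarboxylating dehydrogenase Nsdhl, which acts before Hsd17b7, was at 0.10, 0.17 and 0.29, and the isomerase Ebp at -0.14, -0.13 and -0.19. Sc5d, the desaturase before the last step, was at 0.062, 0.51 and 0.17, with 1 control and 2 mice at 162 µg left out. Of these 6 genes Cyp51, Nsdhl and Sc5d were above 0 at all 3 doses and Ebp below 0 at all 3. Dhcr7, which finishes cholesterol, was -0.66, -0.99, -0.88, -0.33 and -0.63 in the controls, from -0.56 to 0.37 with a median of -0.20 at 18 µg and from -1.04 to -0.012 with a median of -0.75 at 162 µg. Its change was 0.36 (SE 0.14, adjusted p = 0.208) at 18 µg, 0.016 at 54 µg and -0.15 (SE 0.14, adjusted p = 0.685) at 162 µg.

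None of the 6 regulators was called at any dose. Srebf2, whose product drives sterol genes, was -0.45, -0.68, -1.01, -0.89 and -1.09 in the controls, from -0.87 to -0.32 with a median of -0.57 at 18 µg, 0.19, -0.16, -1.29, -0.66 and -0.62 at 54 µg and from -1.18 to -0.32 with a median of -0.88 at 162 µg. The groups overlapped throughout, and the change was 0.37 (SE 0.15, adjusted p = 0.24), 0.41 (SE 0.16, adjusted p = 0.45) and 0.16 (SE 0.15, adjusted p = 0.677). A second Srebf2 probe gave 0.37, 0.42 and 0.33, with adjusted p = 0.228 at 162 µg in the same limma fit. Srebf1 was 0.68, 0.63, 0.64, 0.73 and 1.04 in the controls, from 0.56 to 1.00 with a median of 0.90 at 18 µg, 0.70, 0.58, -0.18, 0.46 and 0.38 at 54 µg and from 0.073 to 0.86 with a median of 0.50 at 162 µg. At 54 µg 4 of 5 mice and at 162 µg 4 of 6 lay below every control, with changes of -0.27 (SE 0.16, adjusted p = 0.729) and -0.20 (SE 0.15, adjusted p = 0.583), against 0.16 at 18 µg.

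Insig1, Insig2, Scap and Stard4 were all below 0 at 18 µg without passing the test, and took both directions at the other doses. Insig1, itself a known SREBP target, was -0.17, -0.53, -0.29, -0.57 and 0.074 in the controls, from -0.81 to -0.18 with a median of -0.41 at 18 µg, 0.43, -0.47, -0.27, -0.49 and -0.31 at 54 µg and from -0.57 to -0.012 with a median of -0.36 at 162 µg. Its changes were -0.17, 0.025 and -0.019, none larger than about 1 SE. Insig2 was -0.26, -0.39, -0.15, -0.42 and -0.51 in the controls, from -1.17 to -0.35 with a median of -0.80 at 18 µg, -0.53, -0.29, -1.19, -0.62 and -0.48 at 54 µg and from -0.91 to 0.036 with a median of -0.24 at 162 µg. It had 4 of 6 mice below every control at 18 µg, and at 162 µg 3 above and 2 below, and its changes were -0.22, -0.032 and 0.18. Its second probe gave -0.22, 0.21 and 0.16. Scap, the escort of SREBPs, was 0.36, -0.26, 0.038, 0.16 and 0.19 in the controls, from -0.57 to -0.0032 with a median of -0.22 at 18 µg, 0.28, 0.11, 0.11, -0.13 and -0.039 at 54 µg and from -0.061 to 0.17 with a median of 0.11 at 162 µg. Its change was -0.35 (SE 0.12, adjusted p = 0.155) at 18 µg, -0.033 at 54 µg and 0.033 at 162 µg. Stard4, which carries cholesterol between membranes, was at -0.11, -0.13 and -0.47, with adjusted p = 0.0934 at 162 µg. A second, dimmer Stard4 probe gave 0.19, -0.089 and -0.054, with adjusted p = 0.898 at 162 µg in the same limma fit.

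Acss2, which makes acetyl-CoA from acetate in the cytosol, was the member that fell. It was 1.09, 0.66, 1.03, 1.36 and 0.93 in the controls. At 18 µg it ran from -0.33 to 0.69 with a median of 0.30, with 5 of 6 mice below every control. At 54 µg, where the spot of replicate 2 was an outlier and was left out, the 4 mice measured were at 0.43, 0.82, 0.38 and 0.78, and at 162 µg the mice ran from -0.45 to 0.52 with a median of 0.35, all 6 below every control. The change was -0.73 (SE 0.18, adjusted p = 0.053), -0.31 (SE 0.19, adjusted p = 0.741) and -0.74 (SE 0.18, adjusted p = 0.021) at 18, 54 and 162 µg, so the 18 µg value was of the same size as the called one and narrowly missed the threshold. A second probe gave -0.27 at 162 µg (adjusted p = 0.111).

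The other 7 fatty acid enzymes were not called. Acly, ATP citrate lyase, was at 0.021, -0.21 and -0.29 at 18, 54 and 162 µg, and fatty acid synthase, Fasn, at -0.13, 0.14 and 0.12. The elongase Elovl6 was at -0.32, 0.59 and 0.099 with the widest SE of the members, from 0.29 to 0.33 over all comparisons, and 1 mouse left out at each of 54 and 162 µg. Of the desaturases that make monounsaturated fat, Scd1 was at -0.33, -0.33 and -0.52 and Scd2 at -0.32, -0.11 and 0.18. These 5 genes took both directions and did not pass the test. The desaturases of polyunsaturated fat were at 0.29, 0.20 and 0.15 for Fads1 and at 0.27, 0.069 and -0.025 for Fads2.

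Where a member had a second probe, the pair could be compared directly. Of the 34 members 22 had 1 probe and 12 had 2. At 162 µg the 2 probes of Pmvk, Hsd17b7, Mvk, Nsdhl and Insig2 differed by less than 1 SE. Those of Fdft1 and Acss2 gave the smaller change on the dimmer probe, and those of Acly and Ggps1 took opposite signs with neither past the test.

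**Figure D3:**
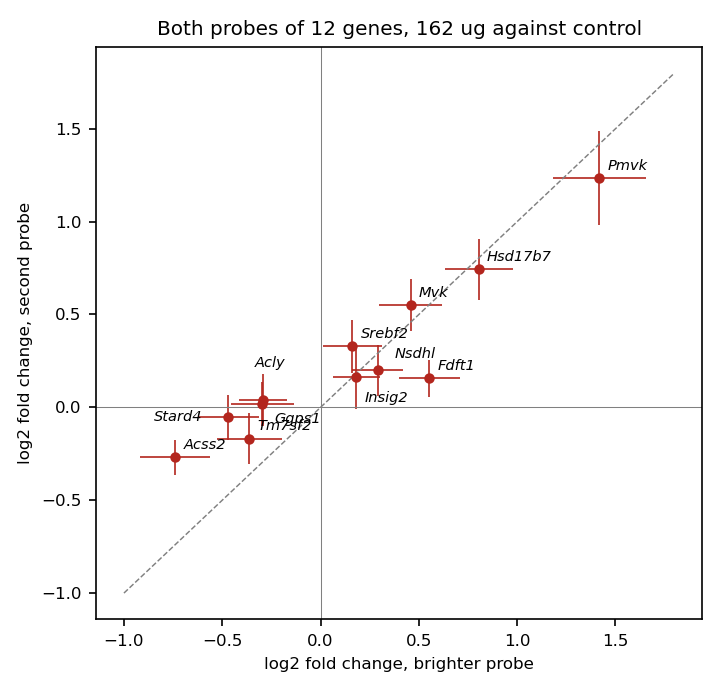
Log2 fold change at 162 µg against control of the brighter probe (horizontal) and of the second probe (vertical) for the 12 members with 2 probes, with bars of 1 SE. The dashed line marks equal values, and Pmvk, Hsd17b7, Mvk, Nsdhl and Insig2 lie within their bars of it.

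The sterol and fatty acid branches were then set side by side. The median change of the 20 sterol enzymes was 0.099, 0.34 and 0.31 at 18, 54 and 162 µg, with 13, 18 and 16 of the 20 above 0, where all expressed genes had medians of -0.022, -0.012 and -0.0074 and 46.4%, 47.4% and 48.8% above 0. The median of the 8 fatty acid enzymes was -0.22, -0.021 and 0.037, with 3, 4 and 4 above 0, and that of the 6 regulators -0.14, -0.032 and 0.0069. Within the sterol branch the 9 mevalonate genes had medians of 0.15, 0.36 and 0.37, all 9 above 0 at 54 µg, and the 11 later genes 0.094, 0.29 and 0.25. The sterol median exceeded the fatty acid median by 0.32, 0.36 and 0.27 on the log2 scale. These are descriptions, with no test over the list, and the 3 doses share the same 5 controls. With each array only centred on its median, all expressed genes shifted to -0.26 at 18 µg and -0.18 at 162 µg, and relative to that shift the sterol median was 0.048 and 0.19. The gap at 162 µg was 0.14 without 162 µg replicate 1 and 0.50 without 162 µg replicate 5.

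The same was computed per mouse, as the mean over the genes of a branch relative to the control mean, without the slide term. For the sterol enzymes it was 0.13 ± 0.16 at 18 µg (SD, n = 6), 0.33 ± 0.13 at 54 µg (n = 5) and 0.32 ± 0.16 at 162 µg (n = 6), beside an SD of 0.16 among the 5 controls. For the mevalonate genes alone the highest control was 0.22, the lowest 54 µg mouse 0.29 and the lowest 162 µg mouse 0.25, so neither of these groups overlapped the controls. The squalene to cholesterol genes overlapped them at every dose. The mevalonate mean includes Pmvk, whose fitted change was 0.93 at 54 µg and 1.42 at 162 µg. The separation of this mean rests in part on that gene, and the mean was not given without it. For the fatty acid enzymes the means were -0.21 ± 0.15, -0.12 ± 0.20 and -0.18 ± 0.25, beside an SD of 0.14 in controls, so at 162 µg this mean and the fitted median of 0.037 differed in sign. These enzymes include Acly and Acss2, whose product, acetyl-CoA, also starts the sterol branch. From control to 162 µg the group mean of Acss2 went from 1.02 to 0.20 and that of Acly from 1.14 to 0.71. Scd1 went from 4.18 to 3.80, Fasn from 2.04 to 2.02 and Fads1 from -0.650 to -0.652. Fads2 went from -0.62 to -0.55, Scd2 from 0.11 to 0.16 and Elovl6 from -1.20 to -1.08. The Elovl6 control mean includes control replicate 4 at 0.57, far above the other controls, which lay from -1.96 to -1.44. The same mouse had the highest fatty acid mean of the controls, 0.22. The sterol mean minus the fatty acid mean was 0.34 ± 0.18, 0.45 ± 0.28 and 0.50 ± 0.31. At 162 µg this gap was 0.66 to 0.73 in 4 mice and 0.051 and 0.17 in replicates 5 and 3.

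**Figure D4:**
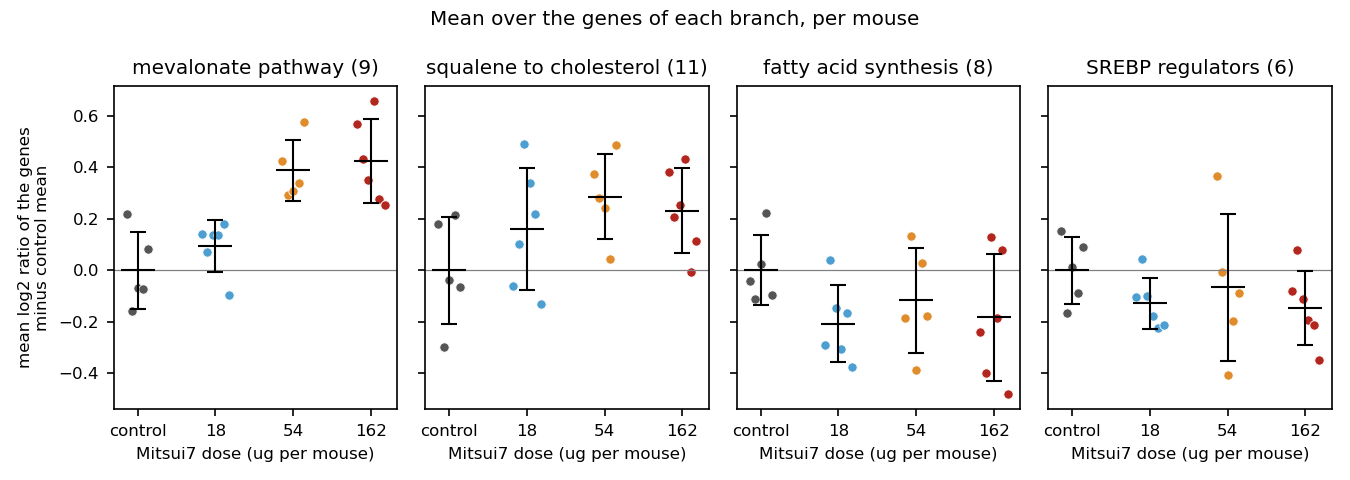
Mean log2 ratio of the genes of each branch in each mouse (points), relative to the control mean, by dose of Mitsui7 in µg, with the group mean (bar) and 1 SD. The mean of the mevalonate genes, which includes Pmvk, lies above every control in all mice at 54 and 162 µg. The means of the fatty acid enzymes and the regulators overlap the controls.

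Between doses, Pmvk and Acat3 were higher at 162 µg than at 18 µg, by 1.47 (SE 0.22, adjusted p = 0.00121) and 0.64 (SE 0.13, adjusted p = 0.00836). Over all genes 3.34% were called higher and 1.66% lower in that comparison, and 8.24% passed on adjusted p alone. By adjusted p alone Dhcr7, at -0.51 (SE 0.13, adjusted p = 0.0342), and Insig2, at 0.40 (SE 0.11, adjusted p = 0.0491), passed as well, so 4 of 34 did. No member was called between 54 and 18 µg by limma, where all genes gave 0.0183% higher and 0.0122% lower. At an unadjusted limma p under 0.05 there were 9 members (26.5%), against 15.1% of all genes. Between 162 and 54 µg no member was called, and the shares over all genes were 0% higher and 0% lower. At an unadjusted limma p under 0.05 there were 4 members (11.8%), against 12.4% of all genes.

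Genes that work beside the members were listed in the same way. Of 9 further sterol and isoprenoid genes, all expressed, 1 was called lower at 18 µg, Por, the reductase that passes electrons to Cyp51 and Sqle, at -1.09 (SE 0.17, adjusted p = 0.0105). At 162 µg Por was at -0.59 (adjusted p = 0.0552), none of the 9 was called, and their median was -0.050. Of 22 further fatty acid and glycerolipid genes 21 were expressed, and 2 were called higher at 162 µg. These were Fads3, of the desaturase family, at 0.91 (SE 0.14, adjusted p = 0.0012), and Hsd17b12, the ketoacyl-CoA reductase of fatty acid elongation, at 0.64 (SE 0.14, adjusted p = 0.0129). Acsl3, an acyl-CoA synthetase, at -0.55 (adjusted p = 0.0374), and Mid1ip1, a partner of acetyl-CoA carboxylase, at -0.57 (adjusted p = 0.0188), passed on adjusted p alone. The median over all 22 was 0.083. Against 18 µg, Fads3 and Lpin1, a phosphatidate phosphatase, were called higher at 162 µg, at 0.63 and 0.93, and Mid1ip1 lower at -0.76.

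Markers of the cell types that a lung sample could hold were read in the same mice, each list as its mean relative to the control mean. Adipocyte markers, 8 of 8 on the array, varied widely within every group. Their mean lay between -0.62 and 1.16 in the controls, between -1.63 and 1.17 in the 18 µg mice, between -1.16 and 0.81 in the 54 µg mice and between -1.60 and 2.76 in the 162 µg mice, and none was called against control, while Lipe was called higher at 162 µg than at 18 µg. At 162 µg it was 2.76 in replicate 5 and 1.00 in replicate 3, the mice with the smallest gap between branches. The others at that dose lay from -1.60 to -0.27. The highest 18 µg mouse, replicate 3, and the highest 54 µg mouse, replicate 5, had gaps of 0.48 and 0.70. Macrophage markers, 7 of 8 on the array, lay between -0.28 and 0.29 in the controls and between -0.021 and 1.01 in the 162 µg mice, with 1 of 7 called higher (Marco). Alveolar type II markers lay between -0.17 and 0.17 and between -0.11 and 0.37 in the same groups, with 1 of 8 called higher (Napsa), and 1 of 3 club cell markers (Cyp2f2) was called lower. Neutrophil markers lay between -0.69 and 1.74 in the controls and between -0.40 and 1.85 in the 162 µg mice, with none of 8 called. The medians of these groups were -0.34 and 0.37. The control at 1.74 was replicate 2, with the next control at -0.29, and the 162 µg mouse at 1.85 was replicate 2, with the next at 0.47. Of 5 eosinophil markers Epx was not well above background on any array and Ear6 was called higher, and of 6 fibroblast and endothelial markers Col3a1 was called lower. The part of these cells in the changes of the lipid genes was not tested.

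The 162 µg calls differed in how far they depended on single mice and on the scaling. Pmvk, Acat3 and Hsd17b7 were called whichever mouse was left out. Lss lost its call without control replicate 3, control replicate 4 or 162 µg replicate 1 (adjusted p of 0.0633, 0.0752 and 0.0699), and Acss2 without control replicates 3, 4 or 5 or 162 µg replicates 2 or 3 (adjusted p from 0.0569 to 0.0844). With median centring alone, or without normalization, none of the 5 was called against control. The arrays themselves differed by slide: the median Cy5 signal was 1.18 to 2.50 times the local background, mostly lower on slides 5 to 7, and slides 5 and 7 held no control.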

How the data were processed

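Total RNA of the right lung was measured in 22 mice on 2-colour Agilent arrays by a reference design. The authors deposited for each array the scanner intensities, the median pixel signal of each spot in both channels with its local background, as the scanner software (Feature Extraction 10.7.3.1, named in the file headers) read them, before any subtraction or normalization. A probe-level table of log2 ratios was deposited by the authors too, with a normalization not given in the sources used here. All reported values come from the intensities, and the log2 table served as a check.

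Outlier-marked spots were dropped. Each array was normalized by loess (span 0.3) without background subtraction, and replicate spots were summarised by their median, giving 55681 probes. RefSeq accessions named 26413 of them, and each of the 20018 genes was represented by its probe of highest mean intensity. A gene was expressed where its Cy5 signal exceeded the trimmed mean (5%) plus 3 trimmed SD of the 308 negative control spots on 80% or more of any group's arrays. The model was fitted in limma 3.58.1 (R 4.3.3, with data.table, version 1.17.8, for reading). Its fixed effects were dose and slide (7 slides, each read in a single scan), which left 12 residual degrees of freedom, and the Benjamini-Hochberg adjustment ran over all probes. The study's methods used a permutation test with the same terms, which was not rerun here. The fit was tested on simulated data. The median SE of a log2 fold change was 0.131, 0.140 and 0.131 at 18, 54 and 162 µg, and the number of arrays limits the precision.

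The members and lists were chosen with earlier results of these data known. All members are named with their changes, and single mice are given for those called or past the adjusted p in any comparison, for the 3 largest changes at each dose and for Srebf1, Srebf2, Insig1, Insig2 and Scap. Alternatives tried were normexp (offset 50) in place of uncorrected signals, other normalizations, other slide terms, a replicate block, other filters and probes, and leaving out each mouse.

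The highest correlation between 2 arrays was 0.959, so no array appeared to be deposited more than once. Promoters come from RefSeq's table (GRCm38.p6), while the arrays' own annotation uses another build, so no probe position is given. The lymphocyte marker list is not reported here.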

Additional observations from a re-analysis of the deposited data

Results flagged for a closer look

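For the 14 members given mouse by mouse and the branch means, 80 groups of mice were examined for a single value far from the rest, and 3 held one, where chance gives about 1 in 20. Hsd17b7 in 18 µg replicate 4 was at -0.21, above the next mouse at -0.61. Srebf1 in control replicate 5 was at 1.04, above the next control at 0.73. The highest treated mouse, 18 µg replicate 2, was close below it at 1.00. Insig1 in 54 µg replicate 1 was at 0.43, above the next mouse at -0.27. None of the 3 genes was called in the group concerned.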

How the results depend on the processing

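The call of Pmvk at 162 µg held under 32 of 34 alternatives, as did that of Acat3, those of Hsd17b7 under 30, Lss under 25 and Acss2 under 24, and none changed direction. Of these 34, 22 only left out 1 mouse. Among the 12 that changed the processing, the call was lost in 2 for Pmvk and 2 for Acat3. It was lost in 4 for Hsd17b7, 6 for Lss and 5 for Acss2. The scaling had the widest effect. With median centring the medians were -0.21 (sterol) and -0.53 (fatty acid) at 18 µg and 0.0097 and -0.19 at 162 µg, with 0 members called at 162 µg and 1 against 18 µg. Without normalization the medians were -0.37 and -0.68 at 18 µg and -0.0086 and -0.24 at 162 µg, with 0 called in both comparisons. All expressed genes then shifted as well, to -0.42 at 18 µg and -0.21 at 162 µg. Cy5 alone gave 3 members at 162 µg, 1 at 54 against 18 µg and 1 at 162 against 18 µg. The deposited log2 table gave a fatty acid median of -0.19 at 162 µg and 1 member against 18 µg. Without a slide term, or with slide as a random block, 1 member was called at 18 µg (Acss2). Fitting only the groups compared called 1 member at 54 µg (Srebf2), and 4 members passed without a fold threshold at 162 against 18 µg. The replicate block gave 2 members at 162 µg and 1 against 18 µg, a fatty acid median of 0.0039 at 18 µg and a gap between branches of 0.11 at 54 µg. The labels give no shared origin for equal numbers, and not every same-numbered pair of mice correlated (down to -0.169 over 31 pairs), so the numbers were not taken to pair the mice. As a hint from the data alone, 12 of 22 mice correlated best with their own number, and same-numbered pairs on different slides had a median of 0.104 against -0.0796 for other pairs on different slides. The count of 12 also took in pairs that shared a slide. On a shared slide the median was 0.272 for same-numbered pairs and 0.250 for other pairs. The cause of these shifts was not tested. Quantile normalization of both channels, chosen after seeing the data, changed no call.

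Leaving out each mouse gave 0 to 1 members at 18 µg, always Acss2 (without control replicate 2, 54 µg replicate 5 or 162 µg replicates 5 or 6). It gave 3 to 6 at 162 µg, the lowest without control replicates 3 or 4. It gave 0 to 1 at 54 against 18 µg (Pmvk, without 54 µg replicate 1) and 1 to 3 at 162 against 18 µg, the lowest without 18 µg replicate 6 or 162 µg replicate 4 and the highest without 18 µg replicate 3. The fatty acid median at 162 µg ran from -0.17, without 162 µg replicate 5, to 0.095. The sterol median at 18 µg was lowest, 0.0019, without control replicate 2 and highest, 0.17, when control replicate 1 was dropped. Dim spots on slides 5 to 7 limit what can be read of weak probes.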
